A study of Mus musculus with 16 samples.

Results

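Mouse brain tumours that had lost p53 and RBPjk (p53-/-RBPjk-/-, named p53-RBPJ here) were compared with tumours that had lost p53 and overexpressed PDGF-B (PDGF+p53-/-, named PDGF-p53). The comparison took 8 of the 16 arrays of the series, 4 of each tumour type, chosen by their titles, and it covered 19938 genes. The other arrays, 4 of PDGF-p53-RBPJ tumours (virus as in PDGF-p53, RBPjk lost as well) and 4 of normal brain, shared one estimate of the spread with them. In p53-RBPJ mice, floxed p53 and floxed RBPjk were removed by Hes5::CreERT2, an inducible Cre recombinase under the control of Hes5, a gene of neural stem cells, and the Pdgfb gene is labelled wild type. In PDGF-p53 mice, floxed p53 was removed by a PDGF-IRES-Cre retrovirus that also carried PDGF-B, and the Rbpj gene is labelled wild type. Loss of p53 was shared by both tumour types. Tumours were located by GFP from a Cre-dependent reporter and dissected from the brain once the mice had symptoms. The tumour types therefore differ in RBPJ, in PDGF-B, and in how and in which cells Cre acted, and the contributions of these cannot be told apart. The sources used here give neither the age nor the number of the mice. Nor do the labels say that each array stands for its own animal, and the spread behind each p-value may therefore be partly technical.

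Notch receptors are cut when a neighbouring cell presents a ligand, and the freed intracellular part joins RBPJ on DNA and switches on target genes such as those of the Hes and Hey families. In the brain this pathway is known for keeping neural stem cells from maturing into neurons. PDGF ligands bind the receptors PDGFRA and PDGFRB, which signal through the ERK cascade among others, and PDGFRA is the receptor of oligodendrocyte precursors, the dividing cells that make myelinating oligodendrocytes.

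Promoters of 4 genes are shown because they carry the regulatory element that the compared genotypes or a list of changed genes bear on. Hes5 is a Notch target and drives the Cre of p53-RBPJ mice, and Sycp1 had the largest log2 rise and Clic5 the lowest p-value among all called genes. Hmgcs1 was the 1 gene of the cholesterol list whose searched promoter held the element, so it does not represent that list. Each sequence is from RefSeq (GRCm38.p6), runs from 250 bases before the start of the gene to 50 bases after it, and is written 5′ to 3′ on the strand of the gene. Capitals mark TGGGAA (or its complement TTCCCA), the core letters that RBPJ binds, in the first 3 sequences. In the fourth they mark CACCCCAC, a core of the sterol element that SREBP binds. Both were searched on both strands, and TTCCCA matches in Hmgcs1 are left in lower case.
Hes5, chr4:154960673-154960972, plus strand: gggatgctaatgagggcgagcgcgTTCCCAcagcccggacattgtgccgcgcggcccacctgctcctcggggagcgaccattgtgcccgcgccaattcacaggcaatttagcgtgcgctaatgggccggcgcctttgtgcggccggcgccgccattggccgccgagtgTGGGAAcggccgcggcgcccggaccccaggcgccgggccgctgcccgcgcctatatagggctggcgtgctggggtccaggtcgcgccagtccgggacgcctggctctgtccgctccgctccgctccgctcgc
Sycp1, chr3:102936051-102936350, minus strand: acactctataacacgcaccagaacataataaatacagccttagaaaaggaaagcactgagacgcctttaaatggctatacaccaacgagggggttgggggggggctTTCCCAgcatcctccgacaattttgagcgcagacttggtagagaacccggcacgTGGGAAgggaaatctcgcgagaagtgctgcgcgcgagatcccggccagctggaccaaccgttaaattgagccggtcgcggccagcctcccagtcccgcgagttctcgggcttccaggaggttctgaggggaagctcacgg
Clic5, chr17:44188322-44188621, plus strand: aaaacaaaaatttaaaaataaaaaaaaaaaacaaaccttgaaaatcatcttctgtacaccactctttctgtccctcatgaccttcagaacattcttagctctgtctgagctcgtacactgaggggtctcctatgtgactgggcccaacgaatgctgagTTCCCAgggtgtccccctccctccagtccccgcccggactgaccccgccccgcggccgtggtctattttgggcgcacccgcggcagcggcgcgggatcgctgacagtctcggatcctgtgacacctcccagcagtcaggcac
Hmgcs1, chr13:119690101-119690400, plus strand: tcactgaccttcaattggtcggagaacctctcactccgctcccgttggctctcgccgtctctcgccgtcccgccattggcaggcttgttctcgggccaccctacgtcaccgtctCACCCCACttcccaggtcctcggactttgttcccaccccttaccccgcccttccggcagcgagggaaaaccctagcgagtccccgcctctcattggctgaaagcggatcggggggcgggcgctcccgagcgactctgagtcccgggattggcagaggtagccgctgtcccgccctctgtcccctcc
The matches in the Hes5 promoter lay at -226 and -82 from the start of the gene, those of Sycp1 at -144 and -90, that of Clic5 at -92 and that of Hmgcs1 at -136. TGGGAA is common: of genes with a promoter, 28.3% of the 314 called higher in p53-RBPJ tumours and 28.4% of the 531 called lower held it, near the 27.1% of all 15614 tested. Among the Notch targets with a promoter, 4 of 8 held it (Fabp7, Hes5, Hes7 and Hey2). CACCCCAC stood in 1 of 16 genes of the cholesterol list with a promoter and in 3.49% of all tested genes with one. A match of letters is a description and shows no binding.

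Values are log2 expression values after RMA, a method that brings the distributions of all arrays together, so that a difference of 1 is a 2-fold difference. Array medians ran from 5.97 to 6.06, and arrays of one group correlated with r of 0.968 to 0.977 in p53-RBPJ tumours and 0.969 to 0.978 in PDGF-p53 tumours. Xist was high (11.3 to 11.5) in all 4 p53-RBPJ arrays, and in PDGF-p53 tumours in replicate 1 alone (11.5, against 4.08 to 4.36 in the others), so the tumour types also differed in their sex pattern. On the second principal component (10.2% of the variance) p53-RBPJ arrays lay at 17.2 to 38.3 and PDGF-p53 arrays at -30.1 to -4.3. Normal brain markers were highest in PDGF-p53 replicate 3, whose mean over 29 neuron genes was 8.01, against 6.74 to 6.99 in the other PDGF-p53 arrays and 9.63 to 9.83 in normal brain. As tumours, both types had far more of the mitotic motor Kif11 than normal brain, at 9.41 to 9.85 in p53-RBPJ and 8.20 to 9.16 in PDGF-p53 tumours, against a mean of 5.08 in normal brain. In bulk tissue, fewer cells of a type and less RNA per cell cannot be told apart.

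The engineered genes were examined first, since they check the labels. Rbpj was 7.76, 7.64, 7.81 and 7.93 in p53-RBPJ tumours, against 8.50, 8.41, 8.19 and 8.17 in PDGF-p53 tumours. No array of one type reached the values of the other, and Rbpj was 1.45-fold lower (-0.53, 95% confidence interval -0.80 to -0.27, limma adjusted p = 0.0191). It was lost as a call without PDGF-p53 replicate 2 (limma adjusted p = 0.0612) or p53-RBPJ replicate 2 (0.0536) and with a sex term (0.112). Whether the probes lie outside the deleted part, and how much host tissue adds, was not tested. Mouse Pdgfb was 5.76, 5.37, 5.77 and 5.23 in p53-RBPJ tumours and 6.06, 5.94, 5.81 and 6.31 in PDGF-p53 tumours. These values did not overlap either (exact two-sided permutation p = 0.0286, the smallest that 4 against 4 arrays allow), but the difference of -0.50 did not pass the test over all genes (limma adjusted p = 0.0693). Whether the probes read the PDGF-B of the retrovirus was not tested. Trp53 was not analysed here. Of 22 measured p53 target genes 1 was called, where 5.54% of all genes were called. It was the kinase Plk2 (-0.86, limma adjusted p = 0.0216), a call lost in 3 of the 8 fits without 1 array.

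Notch targets did not move together. Of 11 measured genes of the target list 1 was called, where 5.54% of all genes were called. It was Hes6, listed as a Hes relative rather than as an established target, since it opposes Hes1. The other genes of the list were not called. Hes6 was 6.28, 6.04, 6.78 and 6.89 in p53-RBPJ tumours, against 5.84, 5.73, 5.72 and 5.78 in PDGF-p53 tumours. Hes6 rose by 0.73 (limma adjusted p = 0.0224), and the call was lost in 4 of the 8 fits that leave 1 array out, with an adjusted p of up to 0.0719 without p53-RBPJ replicate 3. Hes1, the repressor through which Notch holds back neuron formation, was 5.98, 6.15, 5.77 and 5.87 in p53-RBPJ tumours and 6.25, 7.00, 6.50 and 6.06 in PDGF-p53 tumours, a difference of -0.51 that did not pass (limma adjusted p = 0.118). Hey1 was 7.20 to 7.33 in p53-RBPJ tumours and 7.45 to 7.89 in PDGF-p53 tumours, without overlap, but its difference of -0.30 did not pass either (limma adjusted p = 0.144). Hes5 differed by -0.16 (95% confidence interval -0.41 to 0.10) and Fabp7, a radial glia gene, by -0.35 (95% confidence interval -0.70 to 0.01). For Hes7, Heyl, Nrarp, Dtx1 and Dtx4 the differences lay between -0.20 and 0.14, and Hey2 was 0.58 higher with overlapping arrays (limma adjusted p = 0.39). Within the core of the pathway (receptors, ligands, proteases and modifiers) Rbpj was the 1 called gene of 29. The ligand Dll1 (0.81, limma adjusted p = 0.053) and the receptor Notch1 (0.50, limma adjusted p = 0.052) came nearest to the threshold. Dll1 passed it without p53-RBPJ replicate 1 (limma adjusted p = 0.00802) and Notch1 in 2 of the 8 fits without 1 array (0.022 without PDGF-p53 replicate 4). At 0.0117 the median difference of all genes was close to 0, and the medians of the Notch lists were -0.03 for the core and -0.02 for the targets.

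**Figure D1:**
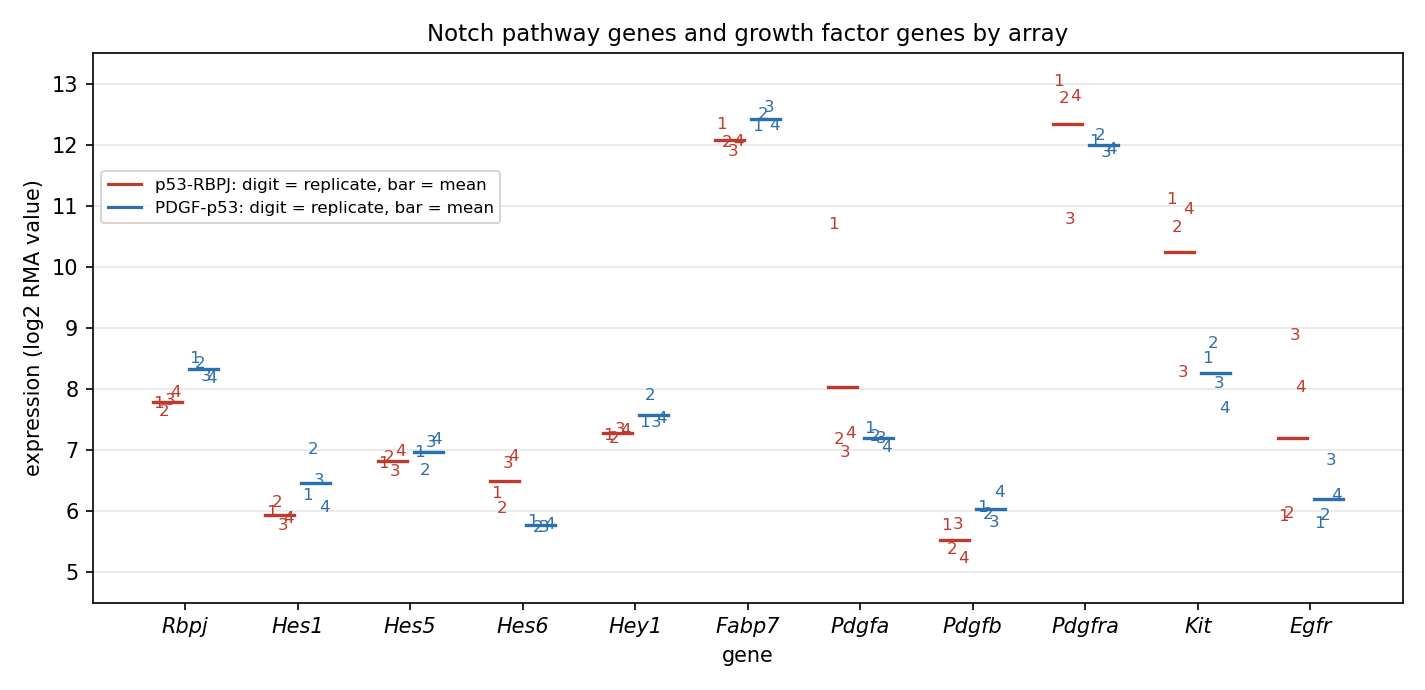
Log2 RMA value of each array for 6 Notch pathway genes and 5 growth factor genes, with p53-RBPJ arrays left of PDGF-p53 arrays in each pair, digits for replicate numbers and bars for group means. Rbpj and Hey1 did not overlap between the types, while Pdgfa, Pdgfra, Kit and Egfr were split within the p53-RBPJ group, with Pdgfa at 10.70 in replicate 1 alone.

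Over all genes, 1105 of 19938 were called at a limma adjusted p under 0.05 (5.54%), 385 higher (1.93%) and 720 lower (3.61%) in p53-RBPJ tumours. A difference of at least 2-fold was reached by 60 of the genes called higher and 245 of those called lower. The arrays did not overlap for 887 called genes. Among all genes, called or not, 9.75% did not overlap, 4.66% higher and 5.08% lower. The share of calls that were higher, 34.8%, depends on the scaling. Centring each array on 10 housekeeping genes, 9 of which were lower in p53-RBPJ tumours, moved all differences up by 0.20 and gave 2215 higher (11.1% of genes) and 431 lower (2.16%), so that 83.7% of calls were higher. A fit with a sex term called 183 genes, 0.246% of genes higher and 0.672% lower, and 178 of them were among the 1105. All 1105 kept their sign in that fit, which uses the same arrays, and its median standard error (SE) was 0.19 in place of 0.15. A fit of the 8 arrays alone called 0.451% of genes higher and 0.998% lower. Leaving out 1 array gave 553 calls without PDGF-p53 replicate 2, 702 without PDGF-p53 replicate 3 and 727 without p53-RBPJ replicate 3.

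**Figure D2:**
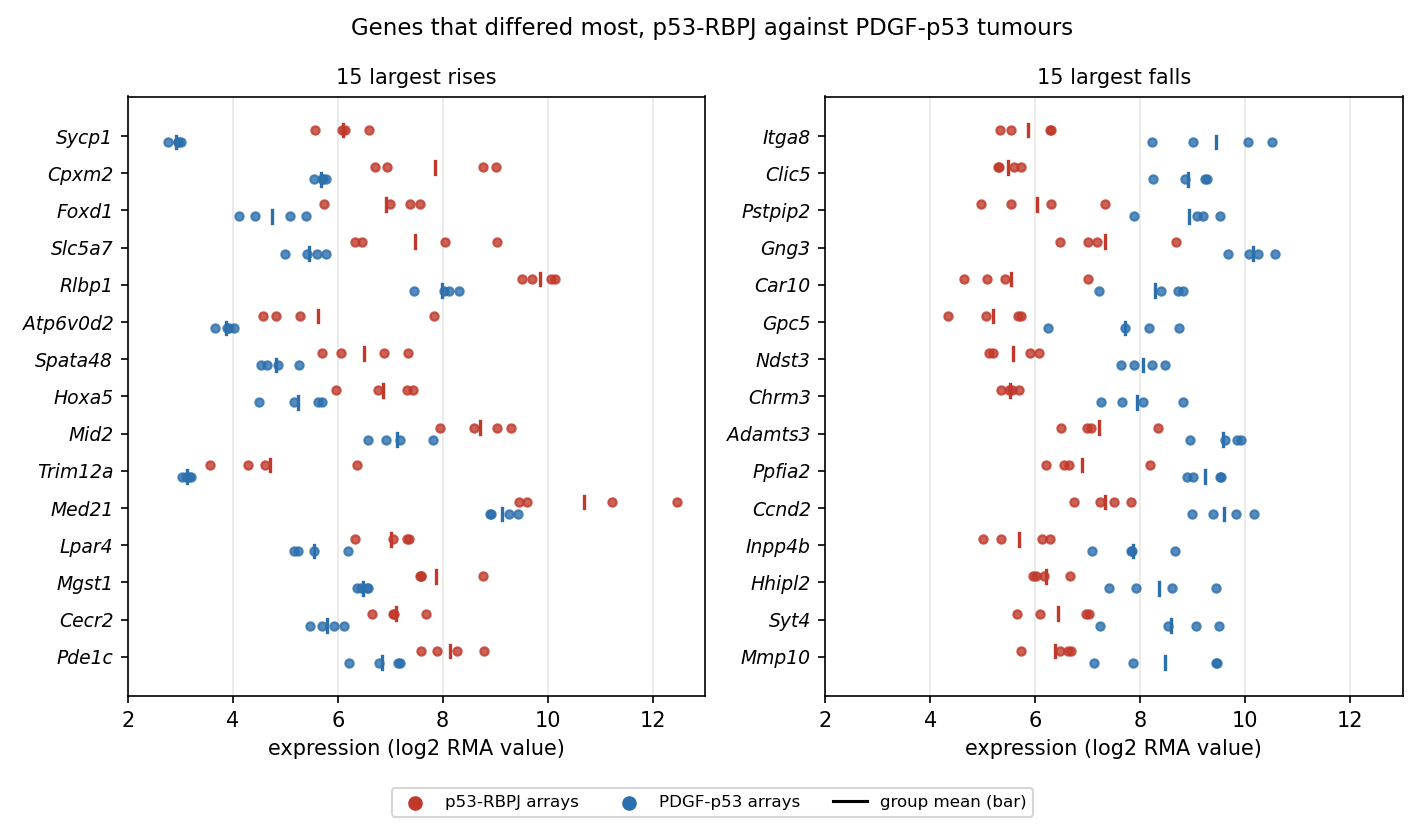
Log2 RMA values of the 15 called genes with the largest rises (left) and the 15 with the largest falls (right) among genes without overlap, with p53-RBPJ arrays above PDGF-p53 arrays and bars for group means. Sycp1 lay at 5.56 to 6.59 in p53-RBPJ arrays and at 2.77 to 3.01 in PDGF-p53 arrays, and Clic5 at 5.30 to 5.72 and 8.25 to 9.27.

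Sycp1 had the largest log2 rise of all called genes, and Clic5 the lowest p-value. Sycp1, a protein of the synaptonemal complex that pairs chromosomes in meiosis, was 6.15, 6.07, 6.59 and 5.56 in p53-RBPJ tumours and 2.77, 2.96, 3.01 and 2.96 in PDGF-p53 tumours. It was higher by 3.17 ± 0.38 (log2 difference ± SE, limma adjusted p = 0.000289). The PDGF-p53 values are dim, where no detection call was used here, so the size of the rise is uncertain. Clic5, of the chloride intracellular channel family, was 5.30, 5.59, 5.30 and 5.72 in p53-RBPJ tumours and 8.25, 9.27, 9.24 and 8.86 in PDGF-p53 tumours. It was 10.7-fold lower (-3.42 ± 0.20, limma adjusted p = 5.17e-08), the lowest adjusted p of all genes. In PDGF-p53-RBPJ tumours, which carry the virus but lack RBPJ, both genes had means between these: 4.86 ± 0.51 for Sycp1 and 6.83 ± 0.32 for Clic5 (SD, n = 4). The difference of PDGF-p53-RBPJ from PDGF-p53 tumours was 1.94 for Sycp1 (limma adjusted p = 0.148) and -2.07 for Clic5 (limma adjusted p = 0.000145), and both comparisons use the same PDGF-p53 arrays. The acetylcholine receptor Chrm3 and the metalloprotease Adamts3 had the same order, with means of 5.52 and 7.22 in p53-RBPJ, 6.45 and 8.13 in PDGF-p53-RBPJ, and 7.94 and 9.58 in PDGF-p53 tumours. Of the Clic family 1 of 5 measured genes was called and of the Sycp family 1 of 3. In normal brain Clic5 averaged 5.90. From this p53-RBPJ tumours differed by -0.42 (limma adjusted p = 0.113), while PDGF-p53 tumours lay above it (limma adjusted p = 8.18e-09). Sycp1 averaged 4.13 in normal brain, with 5.69 in replicate 4 and at most 3.87 in the others. For Sycp1, PDGF-p53 tumours lay below normal brain (limma adjusted p = 0.0208) and p53-RBPJ tumours above it (limma adjusted p = 0.000434).

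Among the other large rises, Rlbp1, a retinaldehyde binding protein also found in glial precursors, was 10.14, 10.06, 9.70 and 9.51 in p53-RBPJ tumours and 8.32, 8.12, 8.03 and 7.45 in PDGF-p53 tumours. Its rise of 1.87 (limma adjusted p = 0.00059) set it apart from PDGF-p53-RBPJ tumours too, whose mean was 8.06. Foxd1, a forkhead transcription factor of the developing retina and kidney, was 5.73, 7.56, 7.00 and 7.37 in p53-RBPJ tumours and 5.40, 4.11, 5.09 and 4.43 in PDGF-p53 tumours (2.16, limma adjusted p = 0.00145). Cpxm2, a secreted carboxypeptidase-like protein, was 6.94, 8.78, 6.70 and 9.02 in p53-RBPJ tumours and 5.55 to 5.78 in PDGF-p53 tumours, so that its size varied within the p53-RBPJ group. The glutathione transferase Mgst1 rose by 1.39 (limma adjusted p = 0.00169), with replicate 3 (8.77) above the other p53-RBPJ arrays (7.58 to 7.59) and 6.37 to 6.58 in PDGF-p53 tumours. Spata48, Mid2, a ubiquitin ligase of microtubules, and Cecr2, a chromatin remodelling subunit, rose by 1.66, 1.59 and 1.32 and were called in each of the 8 fits that leave 1 array out. The choline transporter Slc5a7 (2.02), the proton pump subunit Atp6v0d2 (1.75), Trim12a (1.58), the Mediator subunit Med21 (1.56), the receptor Lpar4 (1.47) and the phosphodiesterase Pde1c (1.30) each lost the call in 1 to 7 of these fits. Their adjusted p reached 0.0608, 0.0779, 0.108, 0.12, 0.0732 and 0.0833.

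All 15 of the largest falls were called in each of those 8 fits. Itga8, an integrin subunit, was 6.30, 6.28, 5.53 and 5.34 in p53-RBPJ tumours and 9.01, 10.51, 10.06 and 8.23 in PDGF-p53 tumours, the largest fall (-3.59 ± 0.43, limma adjusted p = 0.000289). Its mean in PDGF-p53-RBPJ tumours was 8.75. Ccnd2, cyclin D2, a driver of the first phase of the cell cycle, was 6.74, 7.83, 7.24 and 7.51 in p53-RBPJ tumours and 8.99, 10.17, 9.83 and 9.40 in PDGF-p53 tumours. It fell by 2.27 (limma adjusted p = 0.000185), and its mean was 9.39 in PDGF-p53-RBPJ tumours and 7.24 in normal brain. Pstpip2, an actin-linked adaptor of macrophages, fell by 2.88, and the neuronal G protein subunit Gng3 was 7.19, 6.46, 7.00 and 8.67 in p53-RBPJ tumours, against 9.68 to 10.57 in PDGF-p53 tumours. Heparan sulfate genes in the group were the glypican Gpc5 (-2.52) and the sulfotransferase Ndst3 (-2.48). Genes of synapses and signalling followed: Car10, a carbonic anhydrase relative (-2.75), Ppfia2, a liprin of the presynaptic zone (-2.35), Syt4, a vesicle protein (-2.15), and the lipid phosphatase Inpp4b (-2.16). Hhipl2 (-2.15) and the matrix protease Mmp10 (-2.09) completed the 15, and Mmp10 was 5.73 to 6.68 in p53-RBPJ tumours, 7.12 to 9.46 in PDGF-p53 tumours and 5.82 in normal brain.

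Genes of lipid synthesis were the most shifted of the metabolic lists. In the cholesterol list 10 of 20 measured genes fell and 0 rose, where 3.61% of all genes were called lower, and the median difference was -0.79 against 0.0117 over all genes. Sc5d, a late enzyme of the pathway, was 7.51, 7.75, 7.38 and 7.17 in p53-RBPJ tumours and 8.08, 8.84, 8.84 and 8.61 in PDGF-p53 tumours (-1.14, limma adjusted p = 0.00241). Hmgcs1, which makes the precursor of mevalonate, was 8.48, 8.03, 8.43 and 8.26 in p53-RBPJ tumours and 8.61, 9.64, 9.77 and 9.54 in PDGF-p53 tumours (-1.09, limma adjusted p = 0.0205). In both genes PDGF-p53 replicate 1 lay nearest to the p53-RBPJ arrays. Idi1 (-1.08), Sqle (-1.05), Fdft1 (-1.05) and Fdps (-0.92), which act along the pathway, fell as well, as did its regulators Insig1 (-1.04) and Srebf2 and the cholesterol carrier Stard4 (-0.82). The count of falls was 16 without PDGF-p53 replicate 1, 2 without PDGF-p53 replicate 2, 4 without PDGF-p53 replicate 3, 5 without PDGF-p53 replicate 4 and 6 without p53-RBPJ replicate 3, and with a sex term it was 1, with a median of -0.62. Means over the 20 genes were 7.13 to 7.48 in p53-RBPJ and 7.56 to 8.30 in PDGF-p53 arrays, so the types did not overlap. In the fatty acid list 4 of 15 fell and 0 rose. Scd1, the desaturase that makes oleate, was 7.97, 8.59, 7.43 and 7.72 in p53-RBPJ tumours and 8.89, 9.83, 9.95 and 9.81 in PDGF-p53 tumours (-1.70, limma adjusted p = 0.00166), and the elongase Elovl5 fell by 1.16 (limma adjusted p = 0.00124). Me1, which supplies reducing power, and the elongase Elovl6 fell by 0.84 and 0.60, calls lost in 3 and 5 of the 8 fits without 1 array. The mature oligodendrocyte list had a median of -0.73 with 0 of 15 called, and means of 6.81 to 7.12 in p53-RBPJ and 6.95 to 8.62 in PDGF-p53 arrays. Its part in the lipid result was not tested.

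**Figure D3:**
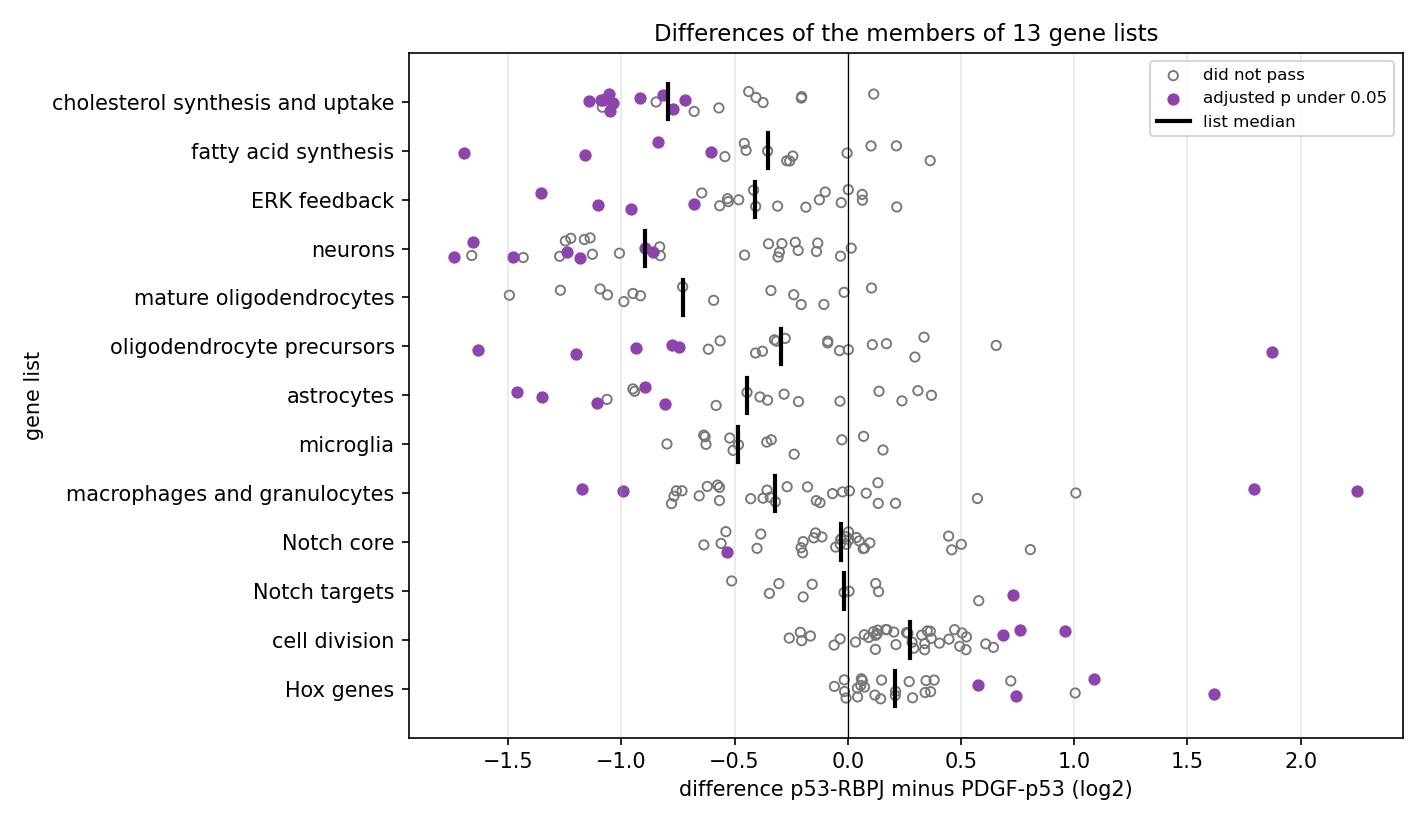
Difference p53-RBPJ minus PDGF-p53 (log2) of each measured member of 13 gene lists, filled where the limma adjusted p was under 0.05, with a bar at the median of the list. The cholesterol list has 10 filled points, all below 0, the neuron list 7 below 0, and the Notch lists are spread around 0 with 1 filled point each.

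Genes that ERK signalling switches on, listed here as feedback genes, were lower in part. Some of them damp the cascade, as Sprouty, Spred and Dusp genes do, while others, such as Ccnd1 and the Etv factors, are outputs. Of 20 measured genes 4 fell and 0 rose, where 3.61% of all genes were called lower, and the median was -0.41. Spry4, a Sprouty inhibitor, was 6.59, 6.54, 5.70 and 6.83 in p53-RBPJ tumours and 7.07, 8.04, 8.01 and 7.96 in PDGF-p53 tumours (-1.36, limma adjusted p = 0.00372). Phlda1 was 9.22, 8.74, 8.36 and 8.96 in p53-RBPJ tumours and 10.11, 10.11, 9.71 and 9.76 in PDGF-p53 tumours (-1.10, limma adjusted p = 0.00147). Ccnd1, cyclin D1, was 10.74, 10.78, 9.78 and 10.41 in p53-RBPJ tumours, against 11.16 to 11.62 in PDGF-p53 tumours (-0.96, limma adjusted p = 0.00723). In all of these p53-RBPJ replicate 3 was the lowest array. Spred3 fell by 0.68, with a call lost in 6 of 8 fits without 1 array. Dusp6, a phosphatase of ERK, and Spry2 differed by -0.53 (limma adjusted p = 0.113) and -0.64 (limma adjusted p = 0.0718), and Etv1, Etv4 and Etv5 by -0.18, -0.53 and 0.06.

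PDGF genes themselves gave 0 calls of 7, where 5.54% of all genes were called, but single p53-RBPJ arrays stood apart. Pdgfa, a ligand of PDGFRA, was 10.70, 7.18, 6.95 and 7.28 in p53-RBPJ tumours and 7.36, 7.22, 7.19 and 7.03 in PDGF-p53 tumours, so replicate 1 lay 3.49 above the PDGF-p53 median and the other p53-RBPJ arrays within 0.25 of it. Pdgfra was 13.03, 12.75, 10.77 and 12.78 in p53-RBPJ tumours, above and below the 11.87 to 12.14 of PDGF-p53 tumours. The ligands Pdgfc and Pdgfd differed by -0.50 (limma adjusted p = 0.0725) and -0.12 (0.888), the receptor Pdgfrb by -0.53 (0.0918) and Pdgfrl by -0.03 (0.969). Single arrays decided some of these: Pdgfra was called 0.86 higher without p53-RBPJ replicate 3 (limma adjusted p = 0.00132), Pdgfc lower without p53-RBPJ replicate 1 (0.0113) and Pdgfrb lower without PDGF-p53 replicate 4 (0.0344). Outside the list, and chosen after its values were seen, the receptor Egfr was 5.91, 5.96, 8.87 and 8.02 in p53-RBPJ tumours and 5.79, 5.92, 6.83 and 6.26 in PDGF-p53 tumours (limma adjusted p = 0.268). In normal brain Egfr was 7.09 to 7.48. Replicate 3, the p53-RBPJ array with the least Pdgfra, had the most Egfr of the p53-RBPJ arrays.

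Some high or low values in single arrays extended to chromosomal neighbours, and others did not. Against the PDGF-p53 median, Pdgfra was -1.22 in p53-RBPJ replicate 3, and its measured neighbours Gsx2 and Kit were -0.11 and -0.03. Egfr was 2.78 and 1.94 in p53-RBPJ replicates 3 and 4. Its measured neighbours there were 1.96 and 0.09 (Vstm2a) and 0.31 and -0.07 (Fbxo48). Windows of 5 neighbouring genes were scanned, each array against the median of the other 11 tumour arrays, a scan chosen after values were seen. Spans whose median moved by 1.5 or more numbered 12 in p53-RBPJ arrays and 1 in PDGF-p53 arrays, where it lay in the MHC class II cluster. Of the 12, those of p53-RBPJ replicate 2 included Brd2 to H2-Ea in the same cluster (1.505) and Oas2 to Oas1a on chromosome 5 (1.64), and 2 of replicate 1 were falls, Minar2 to Iigp1 on chromosome 18 (-1.64) and Bhlhb9 to Tceal9 on the X chromosome (-1.85). The 12 are not separate regions, since Lnx1 to Kit, Chic2 to Srp72 and Pdgfra to Cracd overlap, each in another array. Most of the 11 arrays compared against were PDGF tumours. A shift shared by p53-RBPJ arrays thus counts as spans in them, and the counts of both types are not on equal terms. On chromosome 5, Zfp157, A430033K04Rik, Fam20c and Pdgfa lie within a stretch of 6 measured genes, and in p53-RBPJ replicate 1 alone they were 3.92, 3.74, 4.06 and 3.49 above the median of PDGF-p53 arrays. The dim genes between them, 1700123K08Rik and Gm5294, were 1.504 and 0.29 above it, and the next gene, Prkar1b, 0.34. Elsewhere on chromosome 5, 17 genes from Lnx1 to Srp72, among them Pdgfra and the receptor Kit, had medians of 0.80, 2.44, -0.03 and 0.22 in p53-RBPJ replicates 1 to 4 and -0.16 to 0.23 in PDGF-p53 arrays. Kit was 11.10, 10.63, 8.27 and 10.94 in p53-RBPJ tumours and 8.51, 8.74, 8.09 and 7.68 in PDGF-p53 tumours (limma adjusted p = 0.018). That call was lost without p53-RBPJ replicate 4 (limma adjusted p = 0.0568) or PDGF-p53 replicate 4 (0.0532) and with a sex term (0.0915). The raised stretch differed by array: Lnx1 and Chic2, before Pdgfra, were up in replicates 1 and 2, while Clock and Exoc1, beyond Kit, were up in replicates 2 and 4. On chromosome 6, 34 genes from Bcat1 to Resf1 had medians of 0.09, 0.06, 3.21 and 1.91 in p53-RBPJ replicates 1 to 4, against -0.09 to 0.10 in PDGF-p53 arrays, and 33 of the 34 lay at least 1 above the PDGF-p53 median in replicate 3 and 25 in replicate 4. Med21 of the large rises lies in that stretch (9.60, 9.46, 12.47 and 11.22 in p53-RBPJ tumours), and without replicate 4 its limma adjusted p was 0.12. DNA copy number was not measured.

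**Figure D4:**
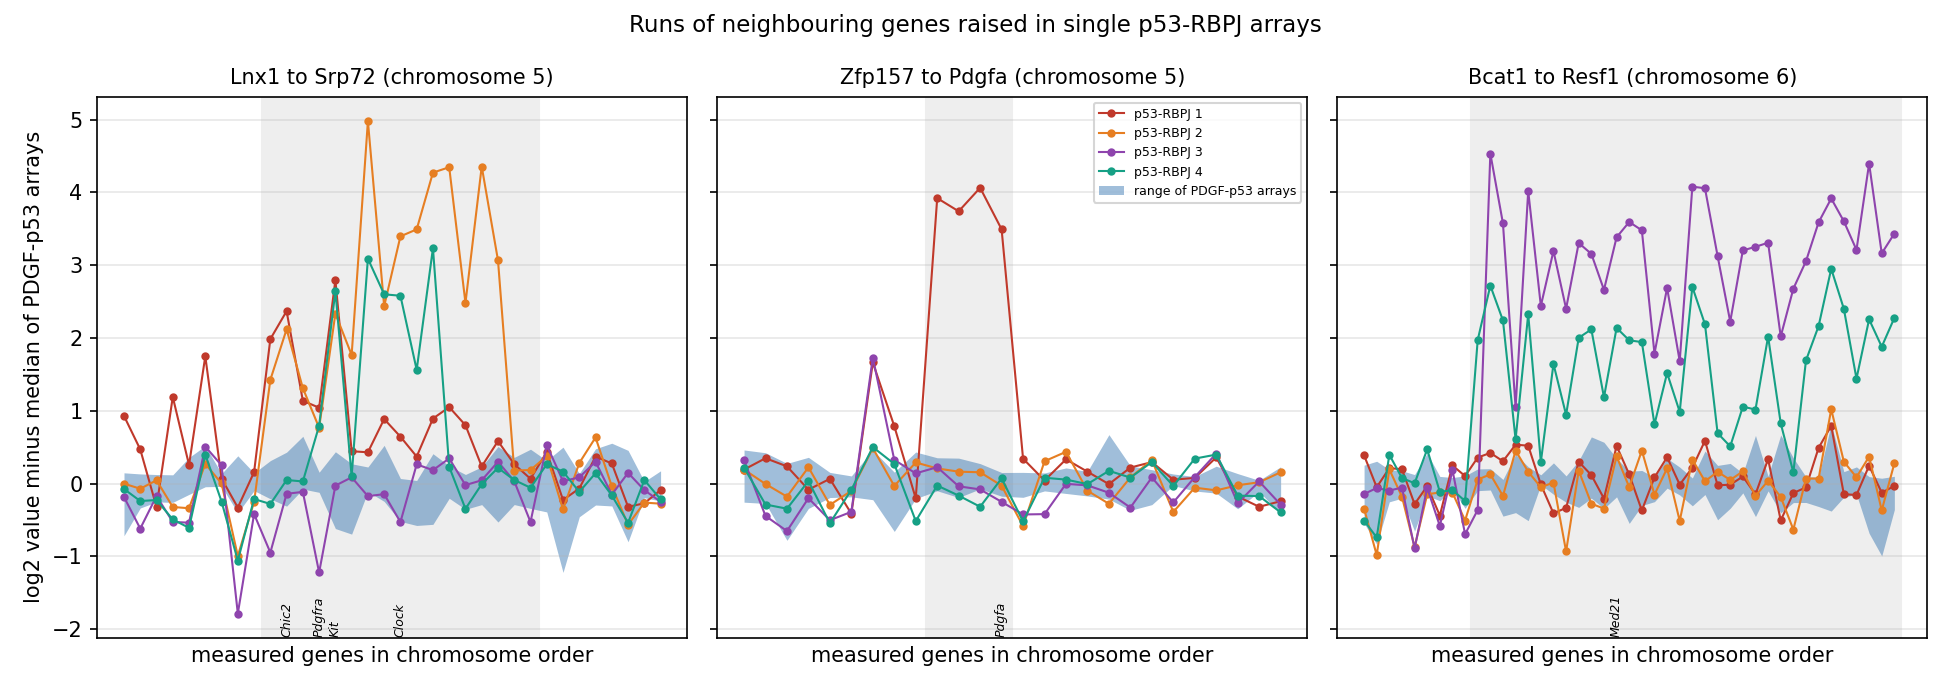
Log2 value minus the median of the PDGF-p53 arrays for measured genes in chromosome order around 3 stretches (grey), with a line for each p53-RBPJ array and a band for the range of the PDGF-p53 arrays. Replicate 1 rises by 3.49 to 4.06 over the 4 shown genes that end at Pdgfa, and replicates 3 and 4 rise over most genes from Bcat1 to Resf1.

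Calls were also uneven over whole chromosomes. On chromosome 9, 169 of 1167 genes fell (14.5%, against 3.61% of all genes) and 1 rose, and the median of its 626 expressed genes was -0.35, with 90.6% of them below 0. Per array the chromosome 9 medians, taken from the mean of the 12 tumour arrays, were -0.33, -0.10, -0.20 and -0.33 in p53-RBPJ tumours and 0.11, 0.20, 0.08 and 0.09 in PDGF-p53 tumours. On chromosome 18, 67 of 472 genes fell (14.2%) and 1 rose, with array medians of -0.19, -0.34, -0.36 and -0.25 in p53-RBPJ tumours and -0.15, 0.39, 0.21 and 0.15 in PDGF-p53 tumours. Here PDGF-p53 replicate 1 lay next to the p53-RBPJ arrays, and without it 109 genes fell, against 25 without PDGF-p53 replicate 2. Both chromosomes held 32.8% of the genes called lower and 8.22% of the genes tested. Rises were more frequent on chromosome 13 (66 of 735, 8.98%) and chromosome 4 (64 of 1161, 5.51%), against 1.93% of all genes, with medians of 0.19 and 0.16. On the X chromosome 28 of 742 genes rose (3.77%), where the tumour types differ in their sex pattern. Rises with a sex term numbered 2 on the X chromosome, 8 on chromosome 13 and 10 on chromosome 4. The median of the expressed X genes was 0.10 with and without that term. Of the called genes described here, Sc5d, Elovl5, Me1, Mmp10, Cspg5, Cspg4, Mcam and Pkm lie on chromosome 9, and Spry4, Zeb1, Cdh2, Aqp4, Stard4, Pstpip2 and Syt4 on chromosome 18. The falls on chromosome 9 numbered 84 without PDGF-p53 replicate 2 and 104 without p53-RBPJ replicate 4, and without p53-RBPJ replicate 3 the rises numbered 28 on chromosome 13 and 32 on chromosome 4. With a sex term 42 genes of chromosome 9 and 4 of chromosome 18 were called lower, at medians of -0.36 and -0.37. With housekeeping centring the medians were -0.15 and -0.23. Single arrays had low medians as well, at -0.53 for chromosome 12 in p53-RBPJ replicate 3, and at -0.30 and -0.40 for chromosomes 8 and 16 in p53-RBPJ replicate 4.

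**Figure D5:**
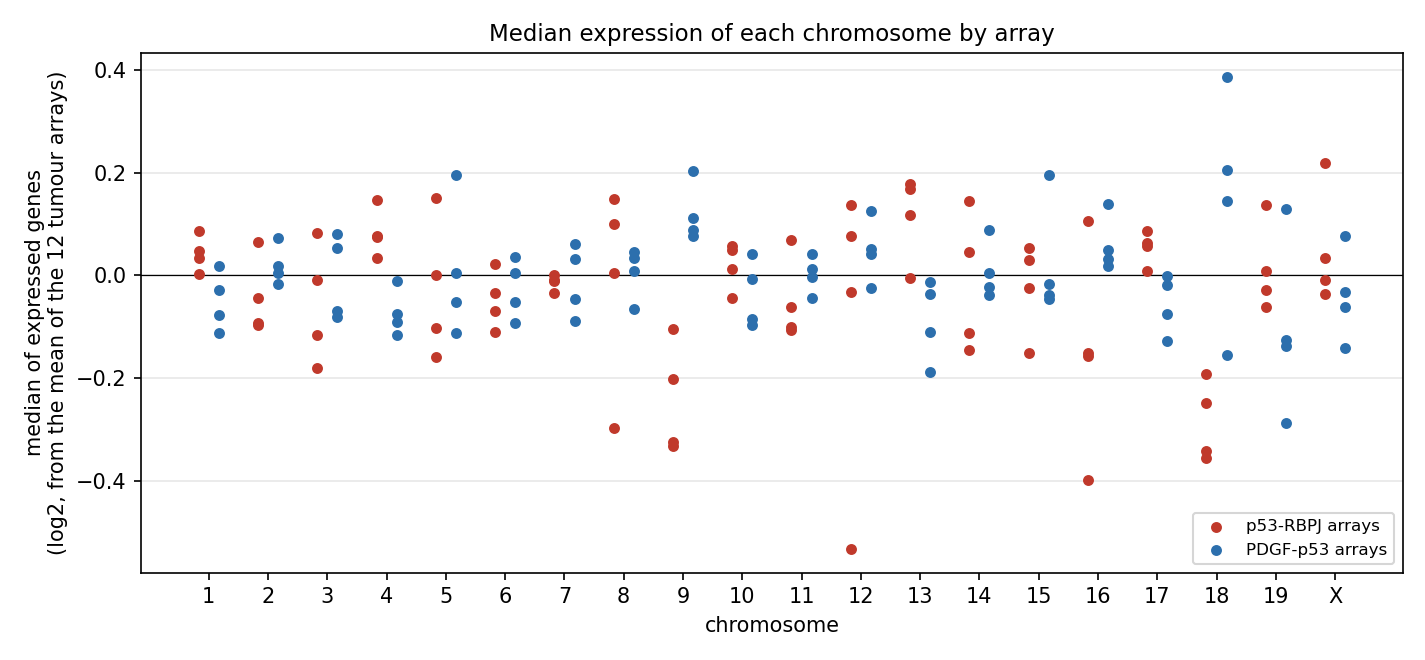
Median of the expressed genes of each chromosome (log2, from the mean of the 12 tumour arrays), with a point per array and p53-RBPJ arrays left of PDGF-p53 arrays. On chromosomes 9 and 18 all p53-RBPJ arrays lie below all PDGF-p53 arrays, and on chromosomes 4, 13 and 17 above them.

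Lists of brain cell types describe the tissue around and within the tumours. Oligodendrocyte precursor genes were split: 5 of 22 fell and 1, Rlbp1, rose, where 3.61% of all genes were called lower and 1.93% higher. The falls were of matrix proteins of these cells and their maker, Tnr, Cspg5, Xylt1, Cspg4 and Ncan (-0.74 to -1.63), and Tnr was 7.88, 8.13, 6.37 and 8.71 in p53-RBPJ tumours and 8.67, 9.64, 9.40 and 9.92 in PDGF-p53 tumours (limma adjusted p = 0.012). The count of falls was 1 without PDGF-p53 replicate 2, 2 without PDGF-p53 replicate 3 and 3 without PDGF-p53 replicate 4, and with a sex term it was 0. The lineage factors Olig1 and Olig2 differed by -0.56 (limma adjusted p = 0.065, and 0.0438 without PDGF-p53 replicate 1) and -0.31 (limma adjusted p = 0.205). Neural stem cell genes gave 1 rise and 1 fall of 20. Pax6, a factor of radial glia and of dorsal progenitors, was 7.05, 6.87, 6.98 and 6.97 in p53-RBPJ tumours and 6.06, 5.56, 6.29 and 5.81 in PDGF-p53 tumours (1.04, limma adjusted p = 0.00562), while the glutamate transporter Slc1a3 fell by 0.81, a call lost in 7 of 8 fits without 1 array. In the neuroblast list Dcx, of migrating neurons, fell by 1.02 (limma adjusted p = 0.00668) and Sox4 rose by 0.92 (limma adjusted p = 0.0193, lost in 2 of 8 fits without 1 array, at 0.062 without p53-RBPJ replicate 3). Id proteins, which block differentiation factors, moved both ways, Id1 by 0.76 (limma adjusted p = 0.025) and Id2 by -1.01 (limma adjusted p = 0.0146). Without PDGF-p53 replicate 2 both calls were lost (limma adjusted p = 0.0756 and 0.0565), and that of Id1 was lost in 5 of 8 fits without 1 array.

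Markers of mature neurons and astrocytes were lower in part. Of 29 neuron genes 7 fell and 0 rose, with a median of -0.90, and Camk2b, a synaptic kinase, was 7.62, 7.25, 7.63 and 7.36 in p53-RBPJ tumours and 8.71, 8.95, 9.05 and 9.08 in PDGF-p53 tumours (-1.48, limma adjusted p = 0.000289). The glutamate receptor subunit Gria2 fell by 1.24 (limma adjusted p = 0.00175) and the vesicle protein Syn1 by 0.86 (limma adjusted p = 0.015). Means over the list were 5.95 to 6.91 in p53-RBPJ arrays and 6.74 to 8.01 in PDGF-p53 arrays, and the count of falls was 3 without PDGF-p53 replicate 2, PDGF-p53 replicate 3 or p53-RBPJ replicate 2, 4 without p53-RBPJ replicate 1 or 4, and 13 without p53-RBPJ replicate 3. Of 19 astrocyte genes 5 fell and 0 rose. Aqp4, the water channel of astrocyte endfeet, was 6.70, 7.06, 7.32 and 6.67 in p53-RBPJ tumours and 7.83, 7.79, 9.37 and 8.61 in PDGF-p53 tumours (-1.46, limma adjusted p = 0.00557), and the glutamate transporter Slc1a2 fell by 1.35 (limma adjusted p = 0.0191, and 0.0538 without p53-RBPJ replicate 4). With a sex term 1 astrocyte gene was called. The part of host brain in these falls was not tested. Voltage-gated sodium channels, a family also found in glial precursors, had 5 falls of 11, where 3.61% of all genes were called lower, and 2 with a sex term. Scn2a was 9.06, 8.53, 8.78 and 7.86 in p53-RBPJ tumours and 9.99, 10.27, 11.21 and 9.82 in PDGF-p53 tumours (-1.76, limma adjusted p = 0.00142), and Scn3a fell by 1.76 too (limma adjusted p = 0.00223). Without PDGF-p53 replicate 3 the family had 5 falls, at a median of -0.32 in place of -0.67.

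Immune and vascular lists are set beside the shares of all genes, 1.93% called higher and 3.61% lower. Of 31 macrophage and granulocyte genes 2 rose and 2 fell. Gpnmb, a glycoprotein of phagocytes, was 9.73, 10.75, 10.57 and 7.63 in p53-RBPJ tumours and 7.65, 7.28, 6.40 and 8.34 in PDGF-p53 tumours (2.25, limma adjusted p = 0.0148), with replicate 4 inside the PDGF-p53 range. Ms4a7, a membrane protein of macrophages, was 1.80 higher, a call lost in 6 of 8 fits without 1 array. Cd163, the haemoglobin scavenger receptor, was 4.94, 4.83, 4.75 and 4.79 in p53-RBPJ tumours and 5.60, 6.81, 6.20 and 5.40 in PDGF-p53 tumours (-1.17, limma adjusted p = 0.0078), and the integrin Itgam fell by 0.99 (limma adjusted p = 0.0246). The call of Itgam was lost in 4 of 8 fits without 1 array, with an adjusted p of up to 0.0756 without PDGF-p53 replicate 4. By limma 0 genes were called among 13 microglia, 16 lymphocyte, 8 class II, 26 interferon, 17 immediate early and 14 choroid plexus and ependyma genes. Of the 13 microglia genes 11 lay below 0, where 47.9% of all genes did, and their median was -0.48. Means over that list were 6.21 to 6.64 in p53-RBPJ and 6.63 to 6.95 in PDGF-p53 arrays. The endothelial and mural lists had 1 fall of 18 (Flt1, lost in 5 of 8 fits without 1 array) and 2 of 14, Cspg4 and the adhesion molecule Mcam (-1.49, limma adjusted p = 0.00406). In lists of malignant traits Zeb1, a repressor of epithelial genes, was 9.71, 9.28, 9.15 and 9.77 in p53-RBPJ tumours and 10.52, 11.14, 11.11 and 11.12 in PDGF-p53 tumours (-1.49, limma adjusted p = 0.000583). Cdh2 fell by 0.75 in the same list (2 of 10), as did S100a6 (-0.95) and Stat3 (-0.76) in the mesenchymal glioma list (2 of 22), Adm (-1.60) and Pkm (-0.61) in the hypoxia and glycolysis list (2 of 19), and Lama4 (-0.76) among 22 matrix genes. Each of these falls but that of Zeb1 lost its call without 1 or more single arrays.

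Of 40 cell division genes 3 rose and 0 fell, where 1.93% of all genes were called higher and 3.61% lower. Of the 40, 34 lay above 0, and the median was 0.28. Kif4, a chromosome motor, was 9.06, 9.02, 8.92 and 8.97 in p53-RBPJ tumours and 8.61, 8.16, 7.99 and 8.47 in PDGF-p53 tumours (0.68, limma adjusted p = 0.0131). Kif11 rose by 0.96 and Melk, a mitotic kinase, by 0.76, calls lost in 2 and 6 of 8 fits without 1 array. The count of rises was 6 without PDGF-p53 replicate 1, 1 without PDGF-p53 replicate 2 or 3, 14 with housekeeping centring and 0 with a sex term. The inhibitor Cdkn1c rose by 0.61 (limma adjusted p = 0.025), a call lost in 4 of 8 fits without 1 array and at 0.0895 without PDGF-p53 replicate 2. The Hox genes, which give body segments their identity and are usually silent in forebrain, had calls in 1 of 4 clusters. Of 10 Hoxa genes 6 rose, against 0 of 9 Hoxb, 0 of 9 Hoxc and 0 of 9 Hoxd genes, and whether the clusters differ was not tested. Of the Hoxd genes 8 lay above 0. Hoxd8 was 8.67 in p53-RBPJ replicate 2, against 4.51, 4.59 and 4.83 in the other p53-RBPJ arrays. Some Hoxa genes were dim, and without dim genes 6 remained, of which 4 were called higher. Hoxa5 was 7.43, 6.76, 5.97 and 7.32 in p53-RBPJ tumours and 5.63, 5.71, 5.17 and 4.49 in PDGF-p53 tumours (1.62, limma adjusted p = 0.00565), with 4.87 in normal brain. Hoxa2, Hoxa13, Hoxa10, Hoxa6 and Hoxa7 rose by 1.09, 1.03, 0.74, 0.67 and 0.57, and the call of Hoxa2 was lost in 6 of 8 fits without 1 array (up to 0.0854 without PDGF-p53 replicate 3). In PDGF-p53-RBPJ tumours Hoxa5 averaged 4.91. With a sex term 1 Hoxa gene was called, at a family median of 0.63 in place of 0.69. Of 28 measured factors of forebrain and hindbrain regions 0 were called by limma. Of 20 glutathione transferases 1, Mgst1, was called, and 2 measured erythroid genes were not.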

How the data were processed

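Gene expression was measured on Affymetrix arrays of 16 samples. The deposited values are log2 expression values per probe set that the authors produced by RMA; the submitters' processing notes name the oligo package for this step and no version. Of 35556 probe sets, 21789 have 1 gene symbol, and the one with the highest mean stood for each of 19938 genes. All 16 arrays entered one limma 3.58.1 fit (R 4.3.3; 12 residual degrees of freedom, no covariate), two-sided, with Benjamini-Hochberg adjustment over all genes. A gene was called at an adjusted p under 0.05. On simulated data the fit recovered 83 of 100 genes changed by 1 and 98 of 100 changed by 2 (log2). It made 11 false calls among the unchanged genes of the 19938. The simulated noise was independent and had the same spread in every group. In the real arrays the spread differed between groups, as for Exoc1 (SD 1.92 in p53-RBPJ and 0.43 in PDGF-p53 tumours). The simulation therefore does not give the error rate of the calls. Expressed genes for chromosome medians had a mean of at least 6, and dim genes one under 5. The number of arrays limits the precision, and the median standard error was 0.15. Tables were handled with pandas 2.3.3 in Python 3.11.15.

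The 35 gene lists and the genes described were chosen with earlier results of these data known. Genes named were the 15 largest rises and 15 largest falls among called genes without overlap (leaving out gene models, small RNAs and sex genes), Rbpj, Pdgfb, the Notch targets, the PDGF genes and up to 8 called members of each list. Gene families, neighbouring-gene stretches and any other gene named were chosen after values were seen. The alternatives tried were 16, with 2 added after seeing the data. Same-numbered arrays did not deviate together (r from -0.09 to 0.17), so the replicate numbers were not taken as pairs.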

Additional observations from a re-analysis of the deposited data

Results flagged for a closer look

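In 15 of 256 groups of 4 arrays checked (5.86%), 1 array lay far from the other 3 by Dixon's criterion, which chance alone meets in about 1 of 20 groups. In p53-RBPJ tumours, replicate 1 was high for Pdgfa (10.70, others 6.95 to 7.28). Replicate 2 was low for Idi1 (6.92, others 7.19 to 7.23). Replicate 3 was high for Mgst1 (8.77, others 7.58 to 7.59) and Ncan (8.33, others 7.93 to 7.96), and low for Pdgfra (10.77, others 12.75 to 13.03) and Sqle (8.20, others 8.95 to 9.06). In PDGF-p53 tumours, replicate 1 was low for Scd1 (8.89, others 9.81 to 9.95), Spry4 (7.07, others 7.96 to 8.04), Stard4 (6.56, others 7.28 to 7.42) and Zeb1 (10.52, others 11.11 to 11.14). Replicate 2 was high for Hey1 (7.89, others 7.45 to 7.51), Insig1 (9.87, others 9.07 to 9.19) and the median of chromosome 15 (0.20). Replicate 4 was low for Cspg5 (9.97, others 10.15 to 10.19) and high for Pdgfd (4.9985, others 4.56 to 4.61). No cause was tested.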

How the results depend on the processing

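The 91 named called genes were selected as called, and the alternatives reuse the same arrays, so a kept direction says little. None of the 91 changed direction under any alternative run (87 had a value without dim genes), while the number of calls (1105, with 385 higher and 720 lower) depended on several. It was 289 (90 higher, 199 lower) with only the 8 arrays compared in the fit (keeping 37 of the 91), 2646 (2215 and 431) with housekeeping centring, and 183 (49 and 134) with a sex term (keeping 31). Array weights gave 255 genes higher. Of the alternatives added later, leaving out PDGF-p53 replicate 3 with a sex term gave 105 (19 and 86, keeping 22), and leaving out p53-RBPJ replicates 3 and 4 gave 298 (89 and 209). Leaving out 1 array gave 553 to 1323 calls, 198 to 467 higher and 344 to 856 lower, and 47 of the 91 were called in all 8 such fits. The replicate number as a block gave 1150 calls (383 and 767), kept 84 of the 91, and gave 15 falls in place of 7 in the neuron list. Genes that were not called changed sign as follows. With housekeeping centring the differences were 0.0069 for Dtx1, 0.047 for Hes5, 0.19 for Hes7, 0.082 for Pdgfd and 0.17 for Pdgfrl. For Hes7 it was 0.015 with array weights, 0.032 with a sex term and 0.033 with that term and without PDGF-p53 replicate 3. For Pdgfrl it was 0.30 without p53-RBPJ replicates 3 and 4. Without 1 array the ranges were -0.093 to 0.096 for Hes7, -0.11 to 0.11 for Nrarp, -0.064 to 1.18 for Pdgfa, -0.33 to 0.075 for Pdgfd and -0.22 to 0.20 for Pdgfrl. The cause was not tested.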

Other observations

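Small nucleolar and Cajal body RNAs, which guide chemical changes of ribosomal and spliceosomal RNA, were in part higher in p53-RBPJ tumours. Of 54 measured genes 13 rose (24.1%, against 1.93% of all genes) and 0 fell, with 49 above 0 and a median difference of 0.43. Snora73b was 6.77, 7.07, 7.23 and 6.88 in p53-RBPJ tumours and 5.59, 5.76, 5.57 and 5.68 in PDGF-p53 tumours (1.34, limma adjusted p = 0.000439). Its mean was 7.00 in PDGF-p53-RBPJ tumours, where the difference from the same PDGF-p53 arrays was 1.36 (limma adjusted p = 0.00305). Snord52 was 7.77, 7.76, 8.11 and 7.78 in p53-RBPJ tumours and 6.81, 6.72, 5.68 and 5.91 in PDGF-p53 tumours (1.58, limma adjusted p = 0.002), and Snora33 rose by 1.06 (limma adjusted p = 0.00145). The count of rises was 9 without p53-RBPJ replicate 3, 4 with a sex term and 28 with housekeeping centring. Of 300 microRNA genes 4 rose and 1 fell. The family was chosen after its values were seen, and whether RNA recovery moved with the groups was not tested.

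Potassium channel genes had 10 falls and 2 rises among 92 measured, with a median of -0.09, where 3.61% of all genes were called lower and 1.93% higher. With a sex term 1 of them was called.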
